A study of Mus musculus with 18 samples.

Results

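The islet of Langerhans is mostly beta cells, and 10 genes that mature beta cells keep low, or that rise when beta cells lose their identity, were followed through RNA sequencing of whole mouse islets. The genes were chosen by symbol: Hk1, Slc16a1, Oat, Acot7, Igfbp4, Zfp36l1, Smad3, Aldh1a3, Neurog3 and Gast. All 10 were among the 24346 genes listed. Of the 10, 9 passed the filter on low values (3 or more of the 18 libraries at 1 FPKM or above), as did 12234 genes in all, and Slc16a1 did not. FPKM counts fragments relative to transcript length and library size, so levels can be set side by side between genes.

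The islets came from mice of the C57BL/6 strain. Their Cdh13 gene either had its exon 2 removed (deleted) or held it between loxP sites (floxed, the wild type of the study's design text). Cdh13 encodes T-cadherin, a receptor for adiponectin. There were 6 groups of 3 libraries: deleted and floxed mice at 14 weeks of age after 6 weeks of high-fat diet, deleted and floxed mice at 14 weeks on normal chow, and deleted and floxed mice at 8 weeks on normal chow. The Cre driver that removed the exon, and whether each library came from a separate animal, are stated in no label, so p-values measure only the spread between these samples.

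Most cells phosphorylate glucose with hexokinases of high affinity and move lactate through monocarboxylate transporters. Beta cells instead keep a set of otherwise widespread genes very low, and these are called disallowed genes. Under metabolic stress, beta cells of mice can dedifferentiate: they lose mature markers and gain genes such as Aldh1a3, and the progenitor factor Neurog3 has been described in them. Acinar, endothelial, stromal, immune and other endocrine cells of an islet sample can also express such genes. In such bulk samples fewer cells of a type and less RNA per cell cannot be told apart.

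The libraries summed to between 903346 and 1394010 FPKM, and between 11474 and 11787 genes reached 1 FPKM in each. This sum was 1337804 to 1394010 on the high-fat diet, 903346 to 1078671 at 14 weeks on chow and 1070616 to 1243323 at 8 weeks. A list of 17 genes of mature beta cells summed to 804309 to 855351 FPKM in deleted and 831287 to 865322 in floxed libraries on the diet. At 14 weeks on chow it summed to 446779 to 574660 in deleted and 466735 to 543568 in floxed libraries. The part of this shift in the members' values was not tested. How many fragments stand behind each library is unknown, which limits the precision of genes at low FPKM. Ins2, the main insulin gene of mice, held 40.2% to 52.7% of the summed FPKM. Cdh13 measured 0.247, 0.809 and 0.311 FPKM in deleted and 1.38, 1.17 and 1.43 FPKM in floxed libraries on the high-fat diet. It was lower in deleted libraries without overlap in each of the 3 conditions. The value covers the whole gene, not exon 2 alone.

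Over the 18 libraries the median was 6.06 FPKM for Oat, 4.72 for Neurog3, 3.82 for Acot7 and 1.38 for Zfp36l1. It was 1.34 for Igfbp4, 1.33 for Hk1, 1.28 for Aldh1a3, 0.876 for Smad3, 0.779 for Gast and 0.585 for Slc16a1. The ranges of neighbours in this order overlapped throughout. G6pc2, the islet glucose-6-phosphatase gene, had a median of 381 FPKM. Among the 9 members with no value at 0, the highest library was 12.6 times the lowest for Aldh1a3, which was the widest spread, and 3.54 times for Oat, which was the narrowest.

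Hk1 and Oat were the members that passed in both genotypes on the high-fat diet, and the 250 bases before their RefSeq start sites (mm10, GRCm38.p6) are therefore shown. Hk1 has a pair of annotated starts on the minus strand of chromosome 10, and the windows before them span chr10:62379909-62380158 and chr10:62340422-62340671. Oat has one start, on the minus strand of chromosome 7, and the window before it spans chr7:132576399-132576648. Capitals mark the letters CCAAT on either strand, which are the box bound by NF-Y.
Hk1 upstream start: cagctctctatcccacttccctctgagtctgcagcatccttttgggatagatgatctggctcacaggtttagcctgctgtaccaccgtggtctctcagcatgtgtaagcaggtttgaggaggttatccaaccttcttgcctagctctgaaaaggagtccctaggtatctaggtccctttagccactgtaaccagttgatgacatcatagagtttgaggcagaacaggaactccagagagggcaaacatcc
Hk1 downstream start: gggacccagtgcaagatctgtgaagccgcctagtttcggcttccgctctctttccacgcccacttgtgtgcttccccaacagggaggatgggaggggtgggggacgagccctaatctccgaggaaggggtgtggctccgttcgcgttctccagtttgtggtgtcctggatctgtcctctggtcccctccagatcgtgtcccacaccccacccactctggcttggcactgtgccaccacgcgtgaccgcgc
Oat start: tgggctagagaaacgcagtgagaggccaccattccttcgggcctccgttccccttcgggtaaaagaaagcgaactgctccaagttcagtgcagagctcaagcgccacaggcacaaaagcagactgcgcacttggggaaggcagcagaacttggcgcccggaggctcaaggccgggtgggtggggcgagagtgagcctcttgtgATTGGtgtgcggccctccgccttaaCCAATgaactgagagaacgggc
The upstream Hk1 stretch holds 1 CpG, while the downstream Hk1 stretch and the Oat stretch hold 14 each, against a median of 6 over 32851 promoters. CCAAT occurs in 33.8% of those promoters, and the Oat stretch holds it at 2 places, once on each strand. The GC box GGGCGG (in 32.7% of promoters), the E-box CACGTG (6.02%) and the TATA letters TATAAA (12.4%) were searched on both strands too and are not in these 3 windows. The values are per gene, so they do not show which Hk1 start was used, and 157 exonic bases of Hk1 overlap the antisense gene Hk1os. Of the 10 members, 9 matched this table, and Aldh1a3 did not.

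Hk1 (chr10:62268855-62379908, minus strand), a hexokinase with high affinity for glucose that most tissues use, rose between 8 and 14 weeks on chow in both genotypes and fell on the high-fat diet in both. On the high-fat diet it measured 1.09, 1.10 and 1.19 FPKM in deleted and 1.23, 1.76 and 1.50 FPKM in floxed libraries. On chow at 14 weeks it measured 2.55, 1.63 and 2.07 FPKM in deleted and 2.48, 2.70 and 2.53 FPKM in floxed libraries. At 8 weeks it measured 0.731, 1.04 and 0.931 FPKM in deleted and 0.585, 1.11 and 1.43 FPKM in floxed libraries. In both genotypes the 14-week chow libraries lay above all libraries of the other 2 conditions, and the high-fat diet and 8-week values overlapped in floxed islets but not in deleted islets.

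In deleted islets the high-fat diet level of Hk1 was 53.9% ± 7.02 (SE) of the chow level, and in floxed islets 58.3% ± 6.13. On the log2(FPKM + 1) scale, which makes changes of genes at low FPKM look smaller than they are, the differences were -0.53 (SE 0.147, adjusted p = 0.0192 by limma) in deleted and -0.52 (SE 0.147, adjusted p = 0.0123) in floxed islets. At 14 weeks on chow the level was 231% ± 37.7 of the 8-week level in deleted and 247% ± 58.8 in floxed islets, with log2 differences of 0.69 (adjusted p = 0.0126) and 0.83 (adjusted p = 0.00261). The difference between the genotypes passed for neither effect, with an interaction of -0.01 for diet (SE 0.208, adjusted p = 0.994) and -0.14 for age (SE 0.208, adjusted p = 0.914). The rise in floxed islets passed in all 26 alternatives. The fall in deleted islets ended without replicate 1 or 2 of their high-fat diet group (-0.52 each, adjusted p = 0.0506 and 0.0594) and without replicate 1 or 3 of their chow group (-0.42 and -0.53, adjusted p = 0.104 and 0.0565). The fall in floxed islets ended without replicate 1 of their high-fat diet group (-0.44, adjusted p = 0.0599), and the rise in deleted islets without replicate 1 of the 14-week (0.58, adjusted p = 0.0860) or of the 8-week group (0.62, adjusted p = 0.0630). With the acinar marker level as a covariate both falls on diet missed the threshold (-0.57 each, adjusted p = 0.108 in deleted and 0.0866 in floxed islets), as did the rise in deleted islets (0.73, adjusted p = 0.0564). That rise also missed it when only the groups compared were fitted (0.69, adjusted p = 0.0770).

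**Figure D1:**
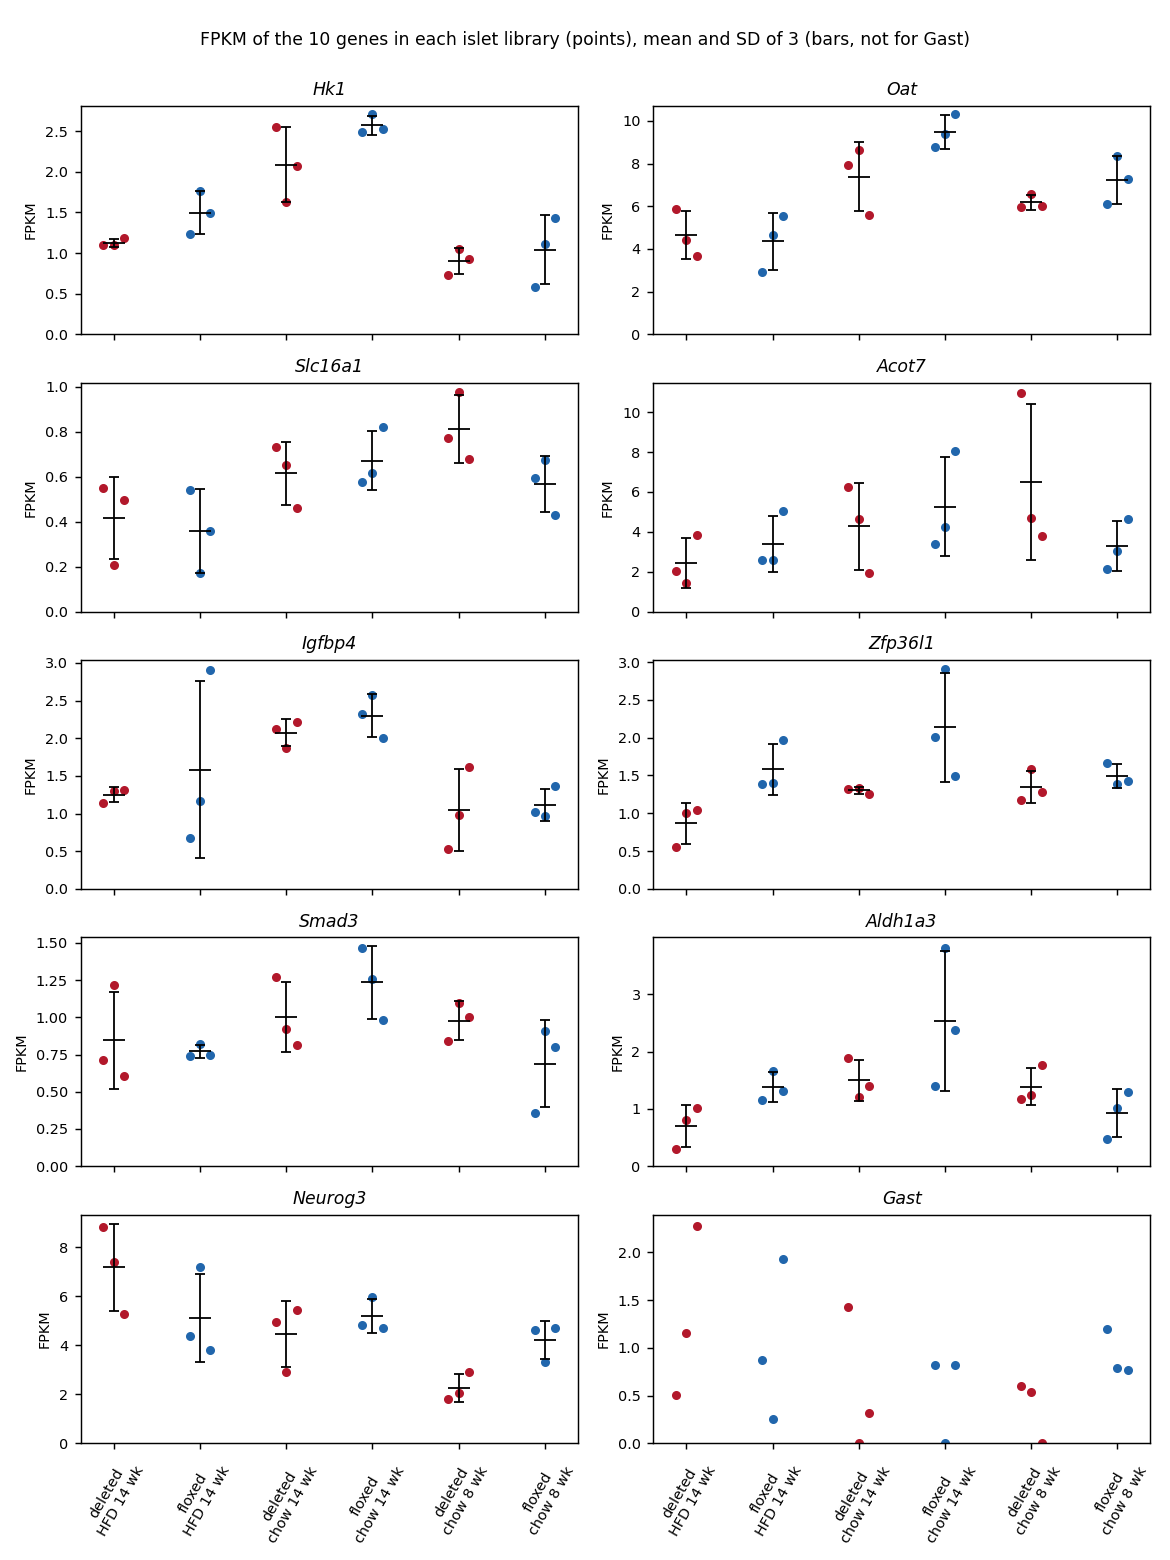
FPKM of the 10 genes (y axis, linear from 0) in the 6 groups (x axis), with 1 point per library, red for deleted and blue for floxed, and bars for the mean and SD of 3, left out for Gast because some of its values are listed at 0. Hk1 and Oat have their highest group means at 14 weeks on chow, Neurog3 has its lowest values in deleted islets at 8 weeks, and Acot7 spreads from 1.45 to 11.0 FPKM.

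Oat (chr7:132557478-132576398, minus strand), the mitochondrial ornithine aminotransferase, fell on the high-fat diet in both genotypes. It measured 5.85, 4.44 and 3.66 FPKM in deleted and 2.92, 4.65 and 5.53 FPKM in floxed libraries on the high-fat diet. At 14 weeks on chow it measured 7.95, 8.65 and 5.57 FPKM in deleted and 8.77, 9.36 and 10.3 FPKM in floxed libraries. At 8 weeks it measured 5.96, 6.59 and 6.00 FPKM in deleted and 6.11, 8.33 and 7.26 FPKM in floxed libraries. The diet groups did not overlap in floxed islets and overlapped by a single library each in deleted islets. The high-fat diet level was 62.9% ± 11.8 (SE) of the chow level in deleted and 46.0% ± 8.37 in floxed islets, with log2 differences of -0.57 (SE 0.174, adjusted p = 0.0330 by limma) in deleted and -1.0 (SE 0.174, adjusted p = 3.57e-04) in floxed islets. The difference between these effects was 0.43 (SE 0.246, adjusted p = 0.410). The fall in floxed islets passed in all 27 alternatives, at an adjusted p of 1.10e-04 to 0.00819. The fall in deleted islets ended without replicate 2 or 3 of the high-fat diet group (-0.55 and -0.44, adjusted p = 0.0946 and 0.146) and without replicate 1 or 2 of the chow group (-0.51 and -0.46, adjusted p = 0.110 and 0.125). It also ended with no filter (-0.57, adjusted p = 0.0676), with only the groups compared (-0.57, adjusted p = 0.0532) and with the acinar covariate (-0.67, adjusted p = 0.112). With age Oat was at 0.21 in deleted (adjusted p = 0.638) and 0.36 in floxed islets (adjusted p = 0.297).

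In deleted islets 2 of the 9 tested members fell on the high-fat diet, where 5.91% of all tested genes fell and 9.05% rose, and in floxed islets 2 of 9 fell, where 13.5% fell and 15.0% rose. No member rose in either genotype. The median difference of the 9 was -0.45 in deleted and -0.44 in floxed islets, beside -0.0034 and -0.0060 for all tested genes. Without regard to the test, 4 of 9 lay lower on the diet with no overlap in deleted islets (16.3% of all tested genes) and 3 of 9 in floxed islets (21.5%). With age, 1 of 9 rose in deleted islets, where 2.35% of all tested genes rose, and 2 of 9 in floxed islets, where 3.20% did. In deleted islets 3 of 9 lay higher at 14 weeks with no overlap (9.93% of all tested genes), namely Hk1, Igfbp4 and Neurog3, and in floxed islets 6 of 9 did (11.4%), namely Aldh1a3, Hk1, Igfbp4, Neurog3, Oat and Smad3. The diet and age comparisons share the 14-week chow libraries, so a high 14-week chow value moves both. The 9 include genes that passed the filter through their higher groups.

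**Figure D2:**
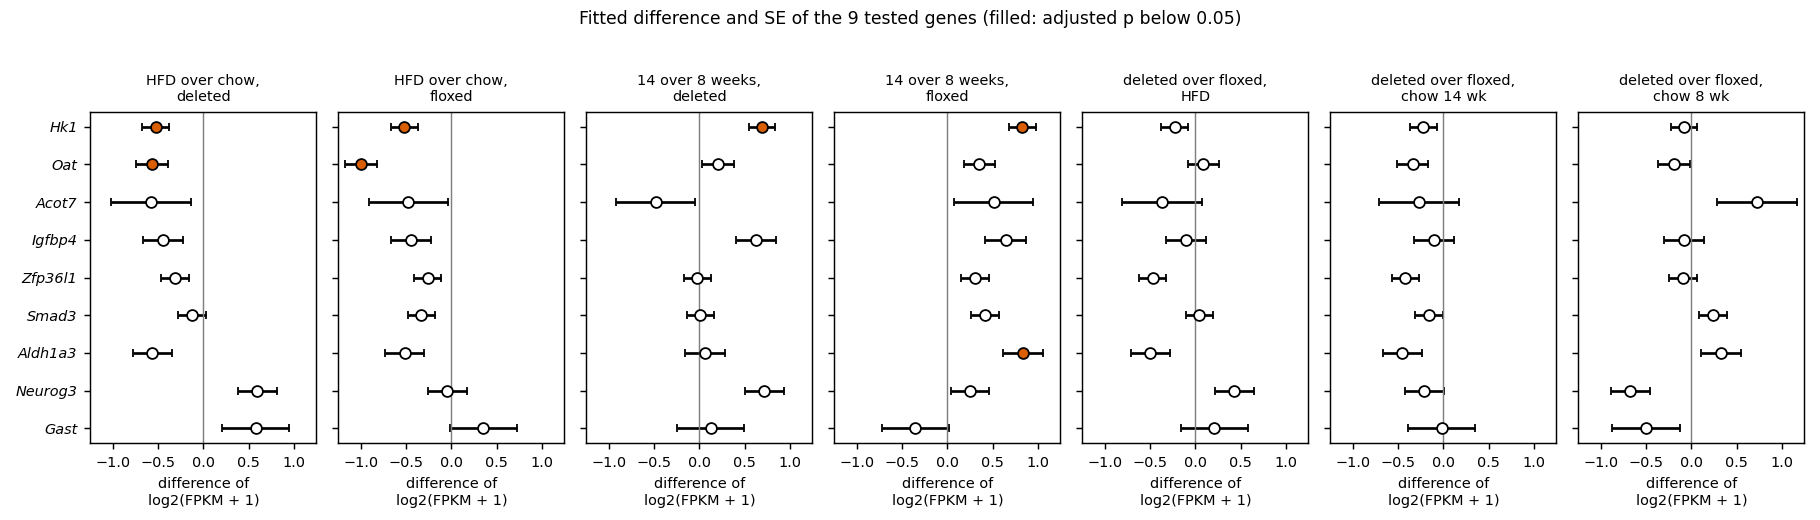
Difference of log2(FPKM + 1) (x axis) and its SE for the 9 tested genes (rows) in 7 comparisons (panels), with the name of each comparison above its panel and filled points for an adjusted p below 0.05. The filled points are Hk1 and Oat on the high-fat diet in both genotypes, Hk1 with age in both genotypes and Aldh1a3 with age in floxed islets.

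Markers of other islet cells moved beside these members. The acinar level was tried as a covariate, with the values given beside each gene it bears on, and the part of the other cell types in the result was not tested. On the high-fat diet 2 of 9 macrophage markers fell in deleted and 7 of 9 in floxed islets, 4 of 10 endothelial markers fell in each, and 5 of 7 tested fibroblast and pericyte markers fell in deleted and 2 of 7 in floxed islets. The acinar markers fell for 7 of 10 in deleted and 10 of 10 in floxed islets. Over all tested genes 5.91% fell on the diet in deleted and 13.5% in floxed islets, and with age 2.35% and 3.20% rose. The summed macrophage level was 199.8 to 214 FPKM in deleted and 195 to 219.6 in floxed libraries on the high-fat diet, 264 to 329.7 in deleted and 332 to 379 in floxed libraries at 14 weeks on chow, and 228 to 251 in deleted and 218 to 252 in floxed libraries at 8 weeks. None of the macrophage, endothelial or fibroblast and pericyte markers was at 0 in any library, while the acinar genes Amy2b and Rbpjl were at 0 in some. The summed acinar level ran from 59.4 to 154 FPKM in deleted and 7.99 to 268 in floxed libraries on the high-fat diet, from 1139 to 2205 in deleted and 775 to 4138 in floxed libraries at 14 weeks on chow, and from 19.6 to 1079 in deleted and 64.2 to 179.9 in floxed libraries at 8 weeks. With age, 1 of 9 macrophage markers rose in deleted and 7 of 9 in floxed islets, and 1 of 10 endothelial markers rose in deleted and 3 of 10 in floxed islets. The endothelial marker that rose in deleted islets was Egfl7. Of the 10 endothelial differences with age, 7 were below 0 and 3 above in deleted islets, while all 10 were above 0 in floxed islets. In deleted libraries the endothelial sum was 173 to 193 FPKM at 8 weeks and 151 to 172 at 14 weeks on chow. In floxed libraries it was 130 to 173 and 199 to 210 FPKM in this order. Over the 18 libraries, which share these groups, the genes whose level followed Hk1 most closely were Ctsz (r = 0.92), the endothelial marker Egfl7 (r = 0.92) and Ei24 (r = 0.91). Those closest to Oat included Inpp5d (0.89) and Colec12 (0.88).

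**Figure D3:**
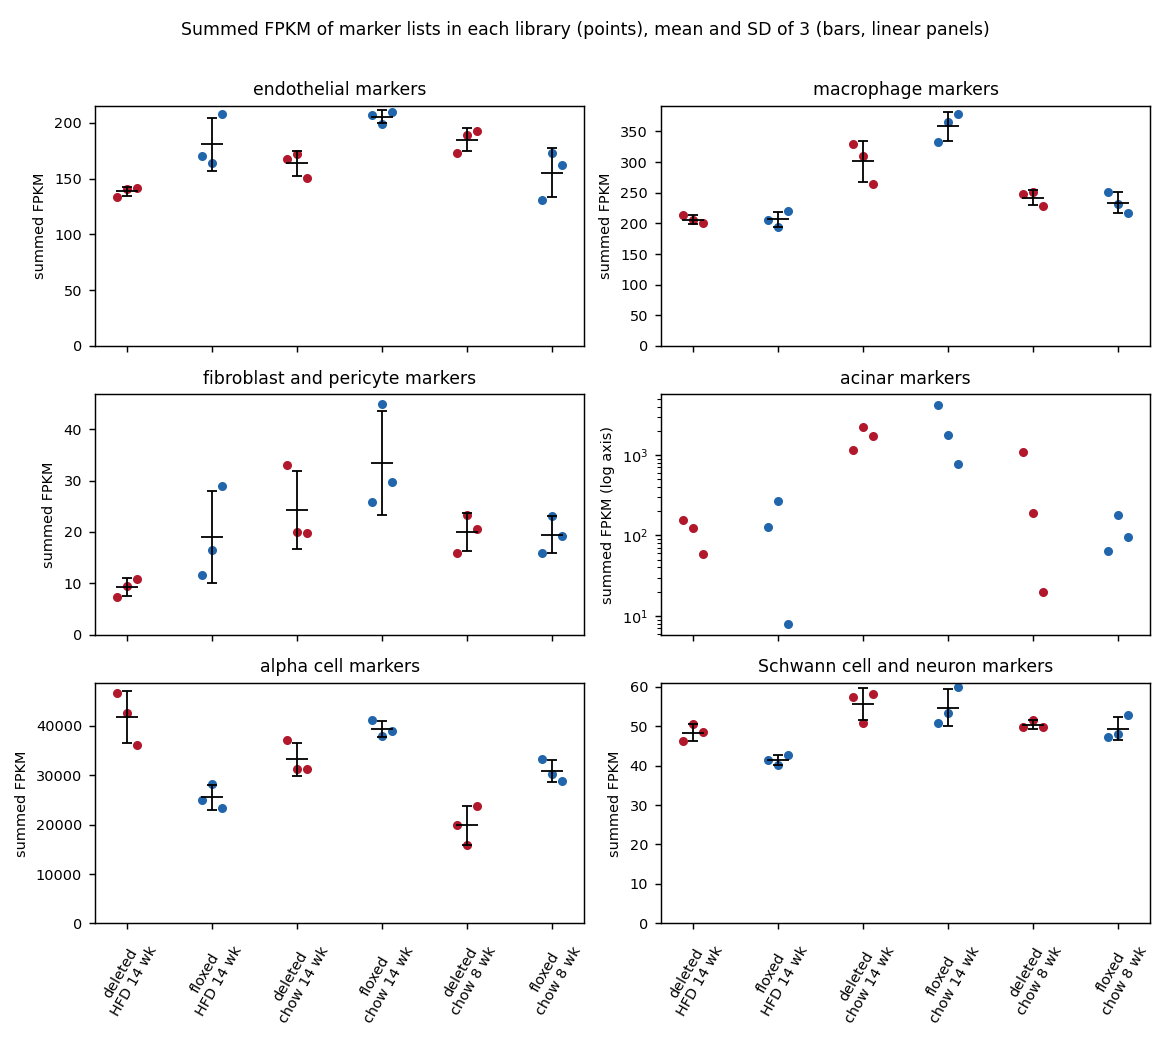
Summed FPKM of 6 marker lists (y axis, linear from 0 except the acinar panel, which has a log axis) in each library of the 6 groups (x axis), with the mean and SD of 3 as bars in the linear panels. The macrophage, fibroblast and acinar lists have their highest group at 14 weeks on chow in floxed islets, and the alpha cell list its lowest in deleted islets at 8 weeks.

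Among other genes of glucose phosphorylation, Hk3, a hexokinase of myeloid cells, measured 0.624, 0.292 and 0.563 FPKM in deleted and 0.209, 0.372 and 0.0679 FPKM in floxed libraries on the high-fat diet. On chow at 14 weeks it measured 0.670, 0.535 and 0.814 FPKM in deleted and 1.16, 1.0 and 1.17 FPKM in floxed libraries. It passed the filter through the floxed 14-week chow group alone, so no test of its difference is given. G6pdx, the first enzyme of the pentose phosphate pathway, fell on the diet in floxed islets (-0.30, adjusted p = 0.00419), and G6pc2 rose in deleted islets (0.24, adjusted p = 0.0356). Hk2 and Hkdc1 had medians of 0.138 and 0.0408 FPKM and were not tested.

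**Figure D4:**
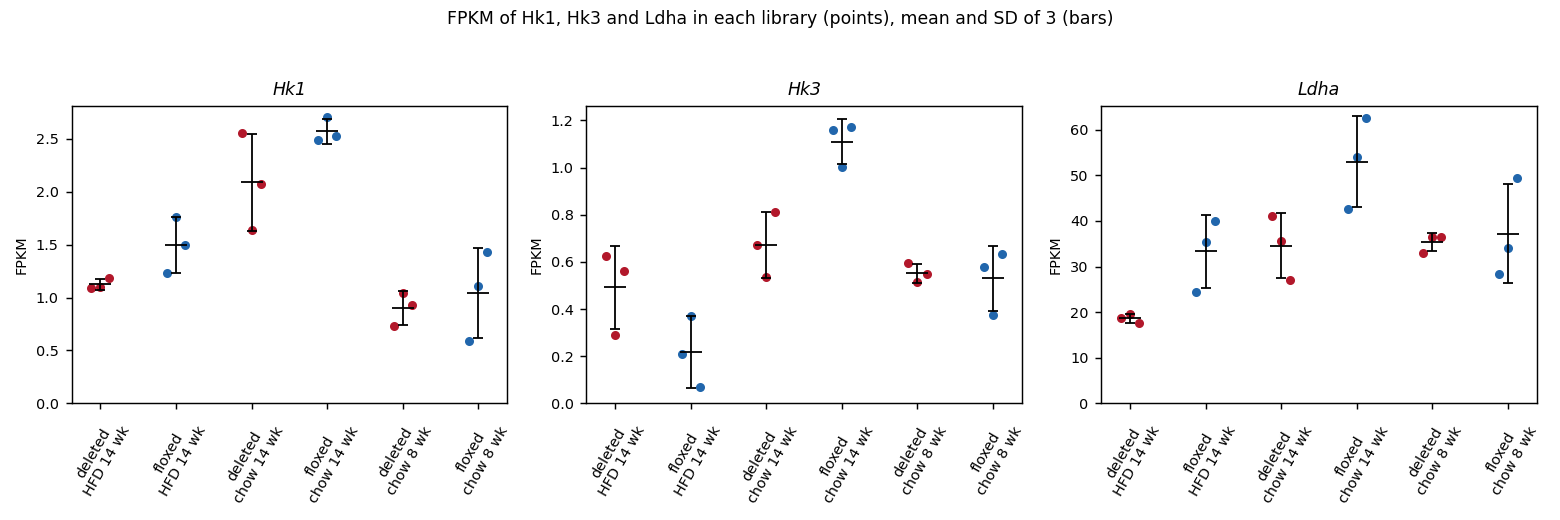
FPKM of Hk1, Hk3 and Ldha (y axes, linear from 0, each with its own scale) in each library of the 6 groups (x axis), with 1 point per library, red for deleted and blue for floxed, and the mean and SD of 3 as bars. All 3 genes have their highest group mean in floxed islets at 14 weeks on chow, where Hk1 reaches 2.70, Hk3 1.17 and Ldha 62.5 FPKM.

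Slc16a1 encodes the monocarboxylate transporter MCT1, which carries lactate and pyruvate, and gain of its expression in beta cells causes exercise-induced insulin release in people. It stayed below 1 FPKM in all 18 libraries and was therefore not tested. It measured 0.550, 0.208 and 0.495 FPKM in deleted and 0.543, 0.171 and 0.361 FPKM in floxed libraries on the high-fat diet. At 14 weeks on chow it measured 0.734, 0.653 and 0.461 FPKM in deleted and 0.577, 0.618 and 0.820 FPKM in floxed libraries, and at 8 weeks 0.774, 0.977 and 0.681 FPKM in deleted and 0.594, 0.675 and 0.431 FPKM in floxed libraries. In floxed islets the diet libraries all lay below the 14-week chow libraries, and with no filter on low values the difference was -0.31 (adjusted p = 0.101). At 8 weeks the deleted libraries all lay above the floxed libraries, and the difference without the filter was 0.21 (adjusted p = 0.623). The other transporters were also scarce, with medians of 0.723 FPKM for Slc16a3 and 0.424 FPKM for Slc16a7. Bsg, a chaperone of such transporters though not of each of them, had a median of 480 FPKM. Ldha, the lactate dehydrogenase subunit that is likewise kept low in beta cells, fell on the diet in both genotypes, by 0.84 on the log2 scale in deleted (adjusted p = 0.0147) and by 0.67 in floxed islets (adjusted p = 0.0282). It measured 18.7, 19.6 and 17.6 FPKM in deleted and 24.5, 35.3 and 40.1 FPKM in floxed libraries on the diet, against 41.1, 35.6 and 27.1 FPKM in deleted and 42.6, 53.9 and 62.5 FPKM in floxed libraries on chow. On the diet it was lower in deleted than in floxed islets (-0.78, adjusted p = 0.0283).

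Acot7, a thioesterase that splits long-chain acyl-CoA and is abundant in brain, passed in no comparison and spread widely between replicates. Its values were 2.05, 1.45 and 3.84 FPKM in deleted and 2.60, 2.60 and 5.02 FPKM in floxed libraries on the high-fat diet, and 6.26, 4.62 and 1.95 FPKM in deleted and 3.41, 4.27 and 8.07 FPKM in floxed libraries at 14 weeks on chow. At 8 weeks they were 11.0, 4.71 and 3.80 FPKM in deleted and 2.15, 3.06 and 4.65 FPKM in floxed libraries. The groups overlapped in all 7 comparisons, and the SE of each difference was 0.439. The genes closest to Acot7 over the 18 libraries were Sncg (r = 0.90), Stmn2 (0.88) and Cd9 (0.87). The Schwann cell and neuron markers summed to 40.0 to 59.9 FPKM over all libraries. Among other thioesterases, Acot13 rose on the diet in both genotypes (0.45 in each, adjusted p = 3.19e-04 in deleted and 1.25e-04 in floxed islets).

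Igfbp4, a secreted protein that binds insulin-like growth factors, had the same order of group means as Hk1 but passed in no comparison. It measured 1.14, 1.30 and 1.32 FPKM in deleted and 0.675, 1.16 and 2.91 FPKM in floxed libraries on the high-fat diet. On chow at 14 weeks it measured 2.13, 1.88 and 2.22 FPKM in deleted and 2.32, 2.58 and 2.01 FPKM in floxed libraries, and at 8 weeks 0.531, 0.981 and 1.62 FPKM in deleted and 1.02, 0.962 and 1.36 FPKM in floxed libraries. Every 14-week chow library lay above every 8-week library of its genotype, with log2 differences of 0.62 in deleted (adjusted p = 0.159) and 0.64 in floxed islets (adjusted p = 0.117). On the diet it was at -0.45 in deleted (adjusted p = 0.190) and -0.44 in floxed islets (adjusted p = 0.144). Replicate 3 of the floxed diet group, at 2.91 FPKM, was the highest of all 18 libraries, and without it the floxed diet difference was -0.79 and passed (adjusted p = 0.00432), while without replicate 1 of that group it was -0.18 (adjusted p = 0.593). Without replicate 3 of the floxed diet libraries both age differences passed too (adjusted p = 0.0433 in deleted and 0.0287 in floxed islets). With only the groups compared, the age difference in floxed islets (adjusted p = 0.0292) and the diet difference in deleted islets (adjusted p = 0.0345) passed. With the acinar covariate Igfbp4 passed in all 4 of these comparisons, at -1.06 in deleted and -1.12 in floxed islets on the diet and at 1.10 in deleted and 1.28 in floxed islets with age. Its nearest genes were Pbxip1, Slco2b1 and Ctsz, each at r = 0.82. The abundant binding protein gene Igfbp7 had a median of 205 FPKM and Igfbp3 one of 47.7 FPKM.

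Zfp36l1, an RNA-binding protein that speeds the decay of transcripts with AU-rich elements, had the lowest adjusted p of the members for a genotype difference, on the high-fat diet, while Neurog3 at 8 weeks had the larger difference and a slightly lower unadjusted p (0.00555, against 0.00581 for Zfp36l1). On the high-fat diet it measured 0.557, 1.0 and 1.04 FPKM in deleted and 1.38, 1.40 and 1.97 FPKM in floxed libraries, with no overlap. At 14 weeks on chow it measured 1.32, 1.33 and 1.25 FPKM in deleted and 2.0, 2.91 and 1.50 FPKM in floxed libraries, again with no overlap. At 8 weeks it measured 1.18, 1.58 and 1.28 FPKM in deleted and 1.67, 1.38 and 1.43 FPKM in floxed libraries, which overlapped. Zfp36l1 in deleted islets stood at 54.7% ± 11.9 (SE) of its floxed value on the diet, 61.0% ± 11.8 at 14 weeks on chow and 90.1% ± 9.76 at 8 weeks. The log2 differences were -0.47 (SE 0.153, adjusted p = 0.0527), -0.42 (adjusted p = 0.375) and -0.09 (adjusted p = 0.873). Without replicate 2 of the floxed 14-week chow group the second was -0.25 (adjusted p = 0.931). The difference on the diet passed with a pseudocount of 0.1 (-0.83, adjusted p = 0.0373) and without replicate 2 or 3 of the floxed 14-week chow group (-0.47 each, adjusted p = 0.0326 and 0.0368), and its adjusted p ran from 0.0326 to 0.225 over its alternatives. The library preparation does not mark strand and 1672 exonic bases of Zfp36l1 overlap the long noncoding RNA gene Gm26669 on the other strand, so their reads cannot be told apart. The genes closest to Zfp36l1 were Adgre5 (r = 0.83), the pericyte marker Pdgfrb (0.83) and Ehd2 (0.81), and Pdgfrb itself was lower in deleted than in floxed islets on the diet (-0.67, adjusted p = 0.0261). There 6 of 10 endothelial markers were lower too, where 10.7% of all tested genes passed in either direction. The 10 markers summed to 134 to 141 FPKM in deleted and 164 to 208 in floxed libraries. Their part in the Zfp36l1 values was not tested. Its relatives Zfp36 and Zfp36l2 had medians of 6.53 and 4.89 FPKM.

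Smad3, which carries TGF-beta and activin signals to the nucleus, did not pass in any comparison. It ranged from 0.605 to 1.22 FPKM in deleted and 0.742 to 0.821 FPKM in floxed libraries on the high-fat diet, from 0.813 to 1.27 in deleted and 0.979 to 1.47 in floxed libraries at 14 weeks on chow, and from 0.841 to 1.09 in deleted and 0.358 to 0.910 in floxed libraries at 8 weeks. The floxed 14-week chow libraries lay above both other floxed groups with no overlap (-0.33 on the diet, adjusted p = 0.114, and 0.41 with age, adjusted p = 0.148). Without replicate 1 of the floxed 8-week group the age difference was 0.26 (adjusted p = 0.490). Of 15 tested ligands, receptors, SMADs and inhibitors of its pathway, 1 rose and 3 fell on the diet in deleted islets, where 9.05% of all tested genes rose and 5.91% fell, and 4 fell in floxed islets, where 13.5% fell. Their median difference was -0.15 in deleted and -0.14 in floxed islets. The gene that rose in deleted islets was Smad4, by 1.61 (adjusted p = 0.00221 by limma). In floxed islets Smad4 was at 0.55 on the diet (adjusted p = 0.172). Inhba, the activin subunit gene, fell in both, by 1.58 in deleted (adjusted p = 0.0108) and by 1.79 in floxed islets (adjusted p = 0.00276). The type I receptor gene Tgfbr1 fell by 0.37 in deleted (adjusted p = 0.00360) and by 0.68 in floxed islets (adjusted p = 5.15e-06), and the SMAD repressor gene Skil fell by 0.32 in deleted (adjusted p = 0.0247) and by 0.33 in floxed islets (adjusted p = 0.0135). The genes closest to Smad3 over the libraries were Tmem110 (r = 0.78), Tgoln2 (0.77) and Serpinb1a (0.76).

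Aldh1a3 (chr7:66390890-66427517, minus strand), which makes retinoic acid from retinaldehyde and marks dedifferentiated beta cells of diabetic mice, rose with age in floxed islets. It measured 0.303, 0.804 and 1.02 FPKM in deleted and 1.16, 1.67 and 1.32 FPKM in floxed libraries on the high-fat diet. At 14 weeks on chow it measured 1.90, 1.20 and 1.40 FPKM in deleted and 1.39, 3.82 and 2.39 FPKM in floxed libraries. At 8 weeks it measured 1.17, 1.25 and 1.76 FPKM in deleted and 0.476, 1.02 and 1.30 FPKM in floxed libraries. The floxed 14-week chow group had the highest median and the deleted diet group the lowest. The rise in floxed islets was 0.84 (SE 0.220, adjusted p = 0.0350 by limma), and the level at 14 weeks was 272% ± 103 (SE) of that at 8 weeks. Replicate 2 of the 14-week group, at 3.82 FPKM, weighed on this: without it the difference was 0.58 (adjusted p = 0.216). The call also ended without replicate 3 of that group (0.84, adjusted p = 0.0987) and without replicate 1 or 2 of the floxed 8-week group (0.65 and 0.88, adjusted p = 0.179 and 0.0674). It ended too with a pseudocount of 0.1 (1.34, adjusted p = 0.0604), with no filter (adjusted p = 0.0758), with only the groups compared (adjusted p = 0.135) and with the acinar covariate (1.08, adjusted p = 0.0695). In deleted islets the difference with age was 0.06 (adjusted p = 0.937), and the difference between the genotypes in this effect was -0.78 (SE 0.311, adjusted p = 0.426), so it did not pass.

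On the high-fat diet Aldh1a3 was at -0.56 in deleted (adjusted p = 0.0928, no overlap) and -0.52 in floxed islets (adjusted p = 0.0858). With sample quality weights both passed (-0.66 in deleted, adjusted p = 0.0264, and -0.63 in floxed islets, adjusted p = 0.0336). The floxed difference passed without replicate 1 of the 14-week chow group (-0.77, adjusted p = 0.0160) and was -0.26 (adjusted p = 0.414) without its replicate 2. In deleted islets the adjusted p ran from 0.0264 to 0.320 over the alternatives. Aldh1a3 was lower in deleted than in floxed libraries on the diet without overlap (-0.50, adjusted p = 0.159), and the difference was -0.31 (adjusted p = 0.481) without replicate 1 of the deleted group. Its nearest genes over the 18 libraries were C1qtnf5 (r = 0.87), Pde2a (0.86) and Csgalnact1 (0.85). Among other retinoic acid genes, the retinol dehydrogenase gene Rdh10 rose with age in floxed islets (0.43, adjusted p = 0.0297) and fell there on the diet (-0.37, adjusted p = 0.0161). The retinaldehyde reductase gene Dhrs3 fell on the diet in deleted islets (-0.67, adjusted p = 0.00187). The sister enzymes Aldh1a1 and Aldh1a2 had medians of 0.237 and 0.563 FPKM.

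Neurog3, the transcription factor that commits pancreatic progenitors to the endocrine lineage, had its highest group mean in deleted islets on the high-fat diet and its lowest in deleted islets at 8 weeks. It measured 8.83, 7.41 and 5.28 FPKM in deleted and 4.37, 7.18 and 3.83 FPKM in floxed libraries on the high-fat diet. On chow at 14 weeks it measured 4.96, 2.92 and 5.46 FPKM in deleted and 4.84, 5.98 and 4.72 FPKM in floxed libraries. At 8 weeks it measured 1.82, 2.07 and 2.90 FPKM in deleted and 4.60, 3.33 and 4.71 FPKM in floxed libraries. The deleted 8-week libraries were the 3 lowest of 18, and they overlapped neither the floxed 8-week nor the deleted 14-week group. None of these differences passed: -0.68 between genotypes at 8 weeks (SE 0.215, adjusted p = 0.173), 0.72 with age in deleted islets (adjusted p = 0.0885) and 0.59 on the diet in deleted islets (adjusted p = 0.0709). The age difference passed with sample quality weights (0.80, adjusted p = 0.0139), when replicate 2 of the deleted chow libraries at 14 weeks was left out (0.94, adjusted p = 0.0239) and without replicate 2 of the floxed diet group (0.72, adjusted p = 0.0497). The diet difference passed without replicate 3 of the deleted diet group (0.77, adjusted p = 0.0359) and without replicate 2 of the floxed diet group (0.59, adjusted p = 0.0418), while it was 0.37 (adjusted p = 0.277) without that replicate 2 of the deleted 14-week libraries. Over the alternatives the adjusted p ran from 0.0139 to 0.294 for age and from 0.0359 to 0.277 for diet. In floxed islets Neurog3 was at 0.25 with age (adjusted p = 0.604) and -0.05 on the diet (adjusted p = 0.899).

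The genes closest to Neurog3 were the alpha cell marker Ttr (r = 0.89), the oxytocin receptor gene Oxtr (0.88) and Slc12a9 (0.84). Ttr was lower in deleted than in floxed islets at 8 weeks (-0.53, adjusted p = 0.0160) and rose in deleted islets with age (0.69, adjusted p = 3.99e-04) and on the diet (0.71, adjusted p = 7.42e-05). The summed alpha cell level was 36190 to 46628 FPKM in deleted and 23404 to 28300 in floxed libraries on the diet, 31193 to 37084 in deleted and 37900 to 41154 in floxed libraries at 14 weeks on chow, and 15823 to 23873 in deleted and 28921 to 33298 in floxed libraries at 8 weeks. None of the 8 alpha cell markers was at 0 in any library, and their part in the Neurog3 values was not tested. Among other endocrine lineage factors, Insm1 rose by 0.99 (adjusted p = 7.42e-04) and Pax6 by 0.18 (adjusted p = 0.0462) on the diet in deleted islets, while Isl1, St18 and Neurod1 fell in floxed islets (-0.34, -0.31 and -0.25). Exons of Neurog3 share 273 bases with the gene Fam241b on the other strand.

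Gast, the gastrin gene, which is active in the fetal pancreas and silent in adult mouse beta cells, was near the limit of detection. It was listed at 0.510, 1.16 and 2.28 FPKM in deleted and 0.877, 0.260 and 1.93 FPKM in floxed libraries on the high-fat diet. In the 14-week chow groups it was listed at 1.43, 0 and 0.321 FPKM in deleted and 0.826, 0 and 0.822 FPKM in floxed libraries, and at 8 weeks at 0.601, 0.535 and 0 FPKM in deleted and 1.20, 0.787 and 0.771 FPKM in floxed libraries. It was listed at 0 in 3 libraries and its annotated exons cover 460 bases, the fewest of the 10 genes. No difference passed, the largest being 0.58 on the diet in deleted islets (SE 0.371, adjusted p = 0.332). That value was 0.29 without replicate 3 of the deleted diet group, and, with 1 deleted library on chow at 14 weeks left out, 0.94 (replicate 1) or 0.30 (replicate 2), and it ran from 0.23 to 1.61 over all its alternatives. Its hormone relative Cck was listed at 0 in 6 libraries. Of the shared processing enzymes, Pam rose on the diet in deleted (0.52, adjusted p = 4.66e-04) and floxed islets (0.61, adjusted p = 4.39e-05).

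No member passed the limma test between deleted and floxed islets in any condition. Cdh13 itself passed it only on the high-fat diet. On the high-fat diet 0 of 9 passed, where 10.7% of all tested genes did, and 0 of 9 passed at 14 weeks on chow (0.114% of all tested genes) and at 8 weeks (0.548%). At an unadjusted p below 0.05 there were 2 members on the diet, 1 at 14 weeks on chow and 1 at 8 weeks. The median difference of the 9 was -0.10, -0.22 and -0.08 in this order, beside 0.0087, 0.0022 and -0.0059 for all tested genes. On the diet Aldh1a3, Hk1 and Zfp36l1 lay lower in deleted libraries with no overlap, 3 of 9, where 15.2% of all tested genes did. At 14 weeks on chow Oat and Zfp36l1 did, 2 of 9, where 7.36% did, and at 8 weeks Gast and Neurog3, 2 of 9, where 9.35% did. No member passed the limma test for an interaction of genotype with diet (3.53% of all tested genes passed) or with age (0.196%), and 1 member had an unadjusted p below 0.05 in each, Neurog3 for diet and Aldh1a3 for age.

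Of 11 tested further disallowed genes, 1 fell on the diet in deleted islets (Ldha) and 3 fell in floxed islets (Cxcl12 by 0.92, Ldha by 0.67 and the transglutaminase gene Tgm2 by 0.42), and none rose. Over all tested genes 5.91% fell and 9.05% rose in deleted islets, and 13.5% fell and 15.0% rose in floxed islets. The median difference of the 11 was -0.09 in deleted and -0.25 in floxed islets. With age none passed in deleted islets, where 2.35% of all tested genes rose, and 1 rose in floxed islets, where 3.20% did (Tgm2, 0.81, adjusted p = 0.00453). Between genotypes on the diet Cxcl12 was higher (0.62, adjusted p = 0.0429) and Ldha lower in deleted islets. Of 8 tested further genes linked to dedifferentiated or immature beta cells, 1 rose and 1 fell on the diet in deleted islets, and 1 rose and 3 fell in floxed islets, with medians of -0.02 in deleted and -0.31 in floxed islets. The tetraspanin gene Cd81 fell in both, by 0.28 in deleted (adjusted p = 0.0277) and by 0.32 in floxed islets (adjusted p = 0.00622). Among 17 genes of mature beta cells, 9 rose and none fell on the diet in deleted islets, while 4 rose and 3 fell in floxed islets. Of all tested genes 9.05% rose and 5.91% fell in deleted islets, and 15.0% rose and 13.5% fell in floxed islets. The median difference of the 17 was 0.25 in deleted and -0.05 in floxed islets.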

How the data were processed

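RNA of mouse islets was sequenced in 18 libraries (SMART-Seq HT and Nextera, which do not mark strand, per the labels' protocols). The deposited values were read as FPKM per gene, from the values and from Cufflinks 2.2.1 in the submitters' processing notes, which also name TopHat2 2.0.13, Bowtie2 2.2.3, SAMtools 0.1.19 and mm10. The annotation they used is not given in the sources used here, and read totals are unknown. Genes at 1 FPKM or more in at least 3 libraries were tested with limma 3.58.1 on log2(FPKM + 1), with 6 group means, a mean-variance trend, robust moderation and Benjamini-Hochberg adjustment over all 12234 genes. A call is an adjusted p below 0.05. The fit was also run on simulated data with independent normal noise and no variation shared between genes, and no result here rests on that run. All 10 members were named, with up to 4 called genes of each other list by smallest p and the 3 genes of highest Pearson r for each member. Partner genes that passed and are not in that rule were named after their values were seen. The members and lists were chosen with earlier results of these data known. Gene positions are from GENCODE vM21 and promoters from RefSeq (GRCm38.p6). Alternatives covered pseudocount, filter, scaling, weights, samples fitted, replicate block, an acinar covariate and each library left out. Some genes that these rules name are not reported here.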

Additional observations from a re-analysis of the deposited data

How the results depend on the processing

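Over all alternatives, no difference of a member changed sign while called: 2068 values kept their side of the threshold, 26 lost it and 21 gained it. The counts of genes called were 356 (age, deleted), 508 (age, floxed), 1830 (diet, deleted), 3486 (diet, floxed), 24 (genotype by age), 432 (genotype by diet), 14 (genotype, 14 weeks chow), 67 (genotype, 8 weeks) and 1312 (genotype, diet). With the acinar covariate they were 211 for age in deleted islets, 852 and 1924 for diet in deleted and floxed islets and 50 for genotype by age, with 1 member called for diet in deleted islets. With a mean of at least 5 FPKM, 25 genes were called for genotype at 14 weeks on chow, and the members called, of fewer tested, were 0 and 0 for age and 1 and 1 for diet in deleted and floxed islets. With no filter 3 genes were called for genotype by age and 25 for genotype at 8 weeks, with 1 member for age in floxed and 1 for diet in deleted islets. With only the groups compared, 85 genes were called for age in deleted islets (0 members), 14 for genotype by age, 2 for genotype at 14 weeks on chow and 44 at 8 weeks. A pseudocount of 0.1 called 1 member for age in floxed islets and 1 for genotype on the diet. Quantile scaling called 27 genes for genotype at 14 weeks on chow, 40.7% of them higher in deleted islets against 57.1% without it, and 43.3% against 32.8% at 8 weeks. Sample weights called 1032 and 963 genes for age and 2834 for diet in deleted islets, 182 and 778 for genotype by age and by diet, and 114 and 406 for genotype at 14 weeks on chow and 8 weeks, with 2 members for age in deleted islets. The cause was not tested.

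Leaving out 1 library at a time, the genes called ranged from 149 to 399 (age, deleted), 232 to 636 (age, floxed), 1159 to 2082 (diet, deleted), 2585 to 3680 (diet, floxed), 4 to 41 (genotype by age), 257 to 519 (genotype by diet), 3 to 30 (genotype, 14 weeks chow), 16 to 168 (genotype, 8 weeks) and 820 to 1568 (genotype, diet). The members called ranged from 0 to 2 and 1 to 3 for age and 0 to 3 and 1 to 3 for diet in deleted and floxed islets, and 0 to 1 for genotype on the diet.

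Same-numbered samples deviated together by correlations of -0.159 to 0.166. Values this small from groups of 3 cannot show whether same-numbered samples shared a preparation, so a pairing is unknown. With the replicate block 336 genes were called for age and 1729 for diet in deleted islets, 510 and 3392 in floxed islets, and the members called were 1, 2, 2 and 2 for age in deleted, age in floxed, diet in deleted and diet in floxed islets.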

Other observations

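Among the wider lists, several genes answered the diet differently in the genotypes. Gc, the vitamin D binding protein gene, was at 0.36 and 0.27 with age in deleted and floxed islets (adjusted p = 0.00743 and 0.0365 by limma). On the diet it rose in floxed islets (1.28, adjusted p = 7.22e-10), and the interaction with genotype was -1.22 (adjusted p = 1.11e-06). Nnat, the neuronatin gene, rose on the diet in deleted islets (1.01, adjusted p = 3.07e-04) and fell in floxed islets (-0.57, adjusted p = 0.0124), with an interaction of 1.58 (adjusted p = 5.67e-04). Igfbp3 had an interaction of -1.08 (adjusted p = 0.00561), and Pycr1, a proline synthesis gene, one of -0.55 (adjusted p = 0.00559).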
